A study of Homo sapiens with 4 samples.

Results

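NRF2 is a transcription factor that KEAP1 and the ubiquitin ligase subunit CUL3 keep short-lived in unstressed cells. When KEAP1 is modified by oxidants or electrophiles, NRF2 pairs with a small MAF protein at antioxidant response elements and raises genes of glutathione, thioredoxin, quinone and carbonyl metabolism, while BACH1 competes for the same elements. Aldo-keto reductases, which reduce aldehydes and ketones with NADPH, are among the most inducible of these genes in human cells. The 10 genes described here are GCLC, GCLM, TXNRD1, SRXN1, NQO1, HMOX1, AKR1B10, AKR1C1, AKR1C2 and AKR1C3. All probe sets that the platform annotation ties to at least 1 of them were taken, 24 of the 54675 probe sets on the array, including 1 that names AKR1C1 and AKR1C2 together.

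The samples were M14, an established human melanoma cell line, stably transfected with the pIRES2 vector, which also encodes eGFP, either empty or carrying FLAG-tagged ARHGAP8 without exon 5. Both lines were selected with G418, sorted for eGFP and grown for 4 days, either on collagen-coated plastic (2D) or embedded in growth factor-reduced Matrigel (3D). Each of the 4 combinations had 1 Affymetrix array and each plasmid 1 line, so levels have no replicate spread, and an effect of the plasmid cannot be told apart from other differences between these lines. In RNA from whole cultures, fewer cells holding a transcript and less of it per cell cannot be told apart.

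The values are signals on a linear scale, scaled to a common trimmed mean, and those under a floor of 72.3, the median of all signals, were set to it before log2 was taken. The line effect and the culture effect are log2 differences from an additive fit in limma over all 28651 probe sets above the floor on at least 2 arrays. Each is given with its moderated standard error (SE), and adjusted p-values are Benjamini-Hochberg values over all of those probe sets. The 4 ARHGAP8 probe sets, all shared with the readthrough gene PRR5-ARHGAP8, read 4.02 to 14.8 and do not check the plasmid label, so the transfected line is called the line labelled ARHGAP8. Of 7 melanocyte lineage markers with a probe set, 6 were above the floor on all arrays and PMEL was above it on none. Of 17 markers of fibroblasts, epithelium, blood and liver, 10 were below the floor on every array. The 6 named COL1A1, COL1A2, DCN, KRT8, HBB and CYP3A4 read 117 to 253 on all 4. The highest of these signals, 253, was of COL1A1, while HBB read 166 to 243 and CYP3A4 197 to 235. Whether the cells expressed these 6 genes was not tested, so a signal in that range does not by itself show expression. The ARHGAP8 3D array had an 18S ribosomal RNA control signal of 626 against 27.7 to 49.4 on the others.

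Of the 24 member probe sets, 16 were above the floor on at least 2 arrays and were tested, covering 9 genes. AKR1C3 had no tested probe set. 13 were above the floor on all 4 arrays and 5 on none. GCLM fell in 3D, on 2 of its 3 probe sets, and no other member passed the test for the culture. That is 2 of 16 probe sets lower and 0 higher, where 1.87% of all tested probe sets were called lower and 1.63% higher (535 and 466, against 218 and 297 after cyclic loess normalization). For the line, limma called 0 member probe sets and 0 of the 28651 (0%), while 2024 of all probe sets and 2 of the 16 had an unadjusted p under 0.05. The median effect over the 16 was 0.12 for the line and 0.04 for the culture, against 0.00 and 0.03 over all tested probe sets. A separate fit with 1 probe set per gene made 9 higher and 8 lower line calls among 13239 genes, none of them a member.

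**Figure D1:**
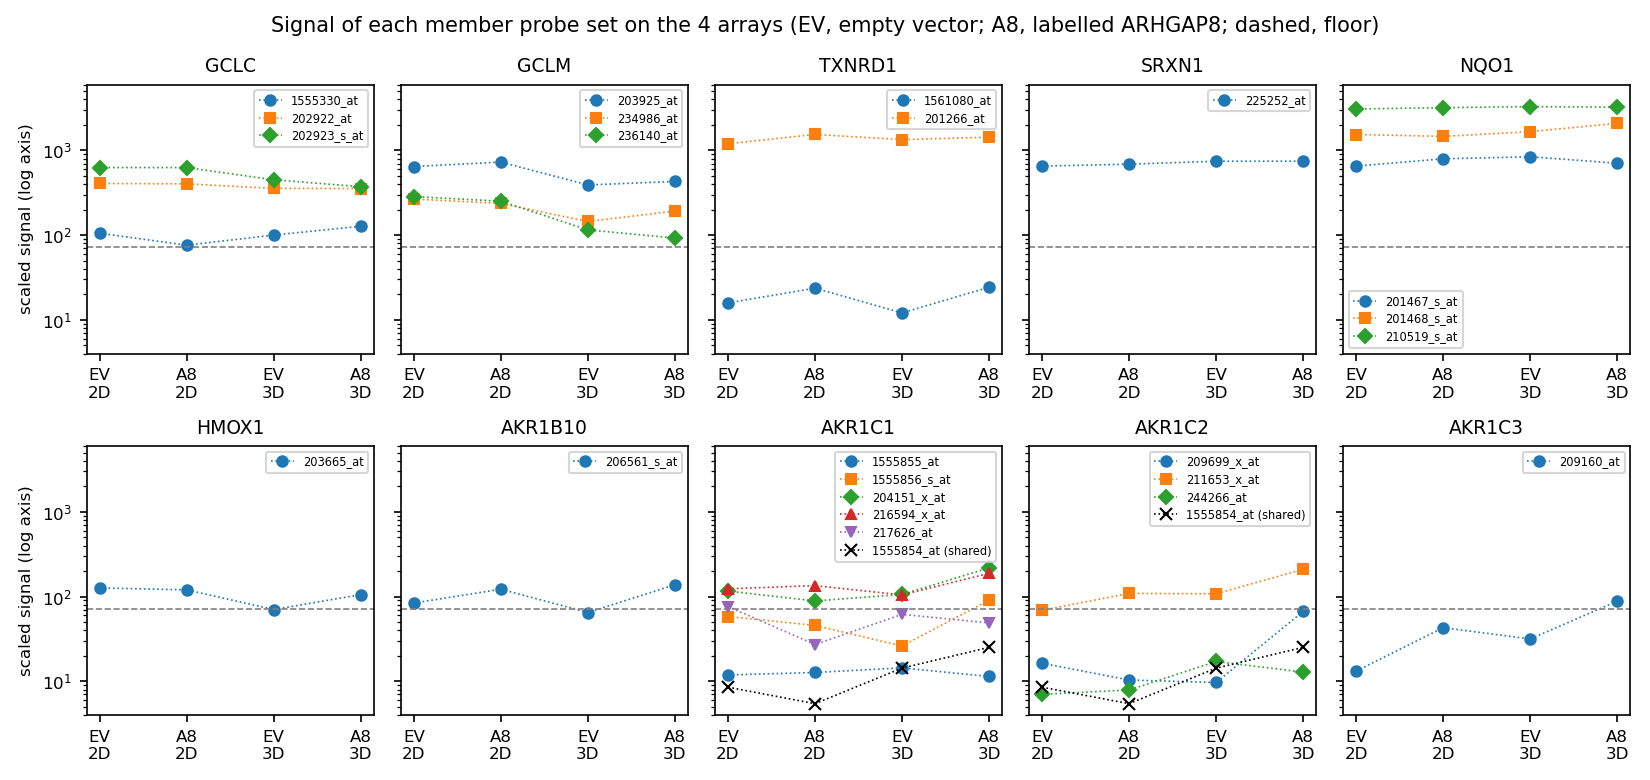
Scaled signal of the 24 member probe sets on a log axis, 1 panel per gene, with the 4 arrays on the x axis (EV, empty vector; A8, line labelled ARHGAP8) and the floor of 72.3 as a dashed line; the shared AKR1C probe set is a cross. The GCLM probe sets are lower on both 3D arrays, NQO1, SRXN1 and TXNRD1 201266_at lie far above the floor on all arrays, and the 4 aldo-keto reductase probe sets above the floor on at least 2 of the other 3 arrays are highest on the ARHGAP8 3D array.

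Glutathione synthesis begins with glutamate-cysteine ligase, whose catalytic subunit is GCLC and whose modifier subunit, GCLM, raises the activity of the enzyme. The promoter of GCLM is shown because this gene alone among the members passed the culture test in the fit over all probe sets. Its window also holds a match to the core of the antioxidant response element, TGACNNNGC, searched on both strands. The window is chr1:93909381-93909680 on the minus strand (RefSeq, GRCh38.p14), from 250 bases before to 50 after the gene start, with the match in capitals.
GCLM promoter: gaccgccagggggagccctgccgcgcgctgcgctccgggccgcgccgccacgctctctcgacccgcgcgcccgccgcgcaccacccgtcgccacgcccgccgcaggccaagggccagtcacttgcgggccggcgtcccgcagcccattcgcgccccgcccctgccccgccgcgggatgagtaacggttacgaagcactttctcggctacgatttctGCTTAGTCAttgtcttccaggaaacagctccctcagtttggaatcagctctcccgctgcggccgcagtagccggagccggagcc
The match reads GCTTAGTCA on the gene's strand and starts 34 bases before the gene start. Over all 35097 promoter windows in the table, 13.3% held this motif, and among the members 3 of 10 windows did, from 2 of the 8 genes with an entry. A match of this kind is a description of the letters and not a measured binding site.

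GCLM probe set 203925_at read 645 in 2D with the empty vector and 728 with ARHGAP8, and in 3D it read 391 and 429.9. Both 3D values lay below both 2D values. In 3D it fell by 0.74 ± 0.17 on the log2 scale (moderated SE over 4 arrays; limma, Benjamini-Hochberg adjusted p 0.0277). Per line, 3D over 2D came to -0.72 with the empty vector and -0.76 with ARHGAP8, much alike. The call did not hold after quantile or cyclic loess normalization (adjusted p 0.0835 and 0.0787 in limma), without a floor or without an intensity trend. Over 10 settings the adjusted p ran from 0.00924 to 0.121. Of these settings, 1 averages the GCLM probe sets, with an effect of -0.90 (adjusted p 0.0135 in limma).

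GCLM probe set 236140_at read 285 (empty vector) and 251 (ARHGAP8) in 2D, against 115 and 92.4 in 3D. Here the cultures were apart by more, 2.48-fold lower in 3D with the empty vector and 2.72-fold lower with ARHGAP8. In 3D it fell by 1.38 ± 0.26 on the log2 scale (limma, Benjamini-Hochberg adjusted p 0.00943), and it passed under all 8 settings that held this probe set, with adjusted p from 0.00067 to 0.0292 in limma. It was the one member probe set at least 2-fold lower in 3D, in the empty-vector line among 17 above the floor on 1 or both arrays compared, and in the other line among 18. Both 3D signals lay below the 117 to 253 of the fibroblast, epithelial, blood and liver markers named above. The ARHGAP8 2D signal of 251 lay within that range, so these folds rest on signals that do not by themselves show expression. Over all probe sets so compared, 1.31% were at least 2-fold lower with the empty vector and 1.92% with ARHGAP8.

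The last GCLM probe set, 234986_at, read 266, 237, 145 and 192 in the same order of arrays. It too was lower on both 3D arrays, by -0.88 and -0.30 log2, and its culture effect of -0.59 ± 0.25 did not pass (adjusted p 0.238 in limma). Across the lines, GCLM had effects of 0.15, 0.12 and -0.25 on these probe sets, with SEs of 0.17, 0.25 and 0.26, each within its own SE of 0.

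The GCLC probe sets did not all go the same way between the cultures, and none passed in the fit over all probe sets. Probe set 202923_s_at read 627 on each 2D array, then 450.1 (empty vector) and 373 (ARHGAP8) in 3D. Both 3D values were thus lower, by -0.48 and -0.75 log2, and the culture effect was -0.61 ± 0.18, short of the threshold (adjusted p 0.0735 in limma). In the fit with 1 probe set per gene, where fewer features are tested, it passed at an adjusted p of 0.0344 in limma. That was 1 of 10 settings, and the setting that averages the GCLC probe sets had an effect of -0.16 (adjusted p 0.664 in limma). Probe set 202922_at read 407, 403, 357 and 354, a culture effect of -0.19 ± 0.19. Probe set 1555330_at was dimmer and went the other way, with 105 and 76.0 in 2D, 100.2 and 127 in 3D and a culture effect of 0.34 ± 0.26. The line effects of GCLC lay between -0.14 and -0.01, each smaller than its SE.

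Of the control ratios that bear on RNA quality, that of ACTB differed between the cultures by more than that of GAPDH. For ACTB, signal at the 3' end divided by that at the 5' end came to 1.10 (empty vector) and 1.05 (ARHGAP8) in 2D, against 1.23 and 1.32 in 3D. For GAPDH the same ratio came to 0.874 and 0.899 in 2D and 0.901 and 0.925 in 3D, a narrower range in which the cultures were barely apart. The part of RNA quality in the lower GCLM signal was not tested. Without the ARHGAP8 3D array the GCLM effects of 203925_at and 236140_at were -0.72 and -1.31. These are the ratios of 3D over 2D in the empty-vector line alone. The part of the raised ribosomal signal of the ARHGAP8 3D array was not tested.

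**Figure D2:**
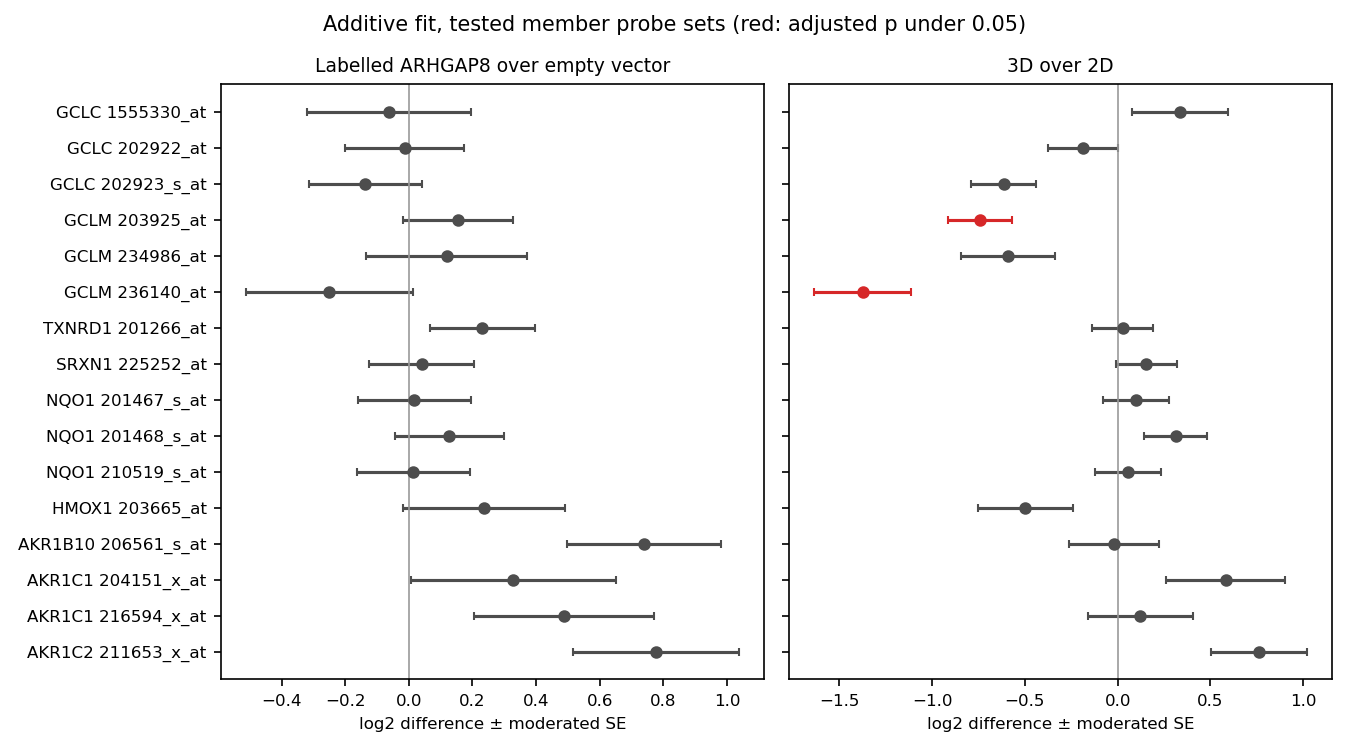
Log2 difference between the lines (left) and between the cultures (right) for the 16 tested member probe sets, as points with the moderated SE of the additive fit as bars; the horizontal scales differ between panels and red marks an adjusted p under 0.05. The GCLM probe sets at -0.74 and -1.38 are the red points, and the aldo-keto reductase probe sets carry the highest line effects, up to 0.78, without passing.

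TXNRD1, the cytosolic thioredoxin reductase, keeps thioredoxin reduced with NADPH, and SRXN1, sulfiredoxin, repairs peroxiredoxins that peroxide has over-oxidised. TXNRD1 has a pair of start sites among the promoter windows, and both are shown because each holds the same core motif as that of GCLM, in capitals. Whether the motif bears on the signal of either gene was not tested. The first window is chr12:104215529-104215828 and the other chr12:104286782-104287081, both on the plus strand of GRCh38.p14 from RefSeq.
TXNRD1 promoter 1: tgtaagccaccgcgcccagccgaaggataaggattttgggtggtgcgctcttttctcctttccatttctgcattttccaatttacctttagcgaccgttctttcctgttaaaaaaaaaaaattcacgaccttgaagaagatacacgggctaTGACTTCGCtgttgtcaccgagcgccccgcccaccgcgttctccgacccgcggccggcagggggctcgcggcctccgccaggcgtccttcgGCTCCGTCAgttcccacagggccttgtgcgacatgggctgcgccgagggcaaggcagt
TXNRD1 promoter 2: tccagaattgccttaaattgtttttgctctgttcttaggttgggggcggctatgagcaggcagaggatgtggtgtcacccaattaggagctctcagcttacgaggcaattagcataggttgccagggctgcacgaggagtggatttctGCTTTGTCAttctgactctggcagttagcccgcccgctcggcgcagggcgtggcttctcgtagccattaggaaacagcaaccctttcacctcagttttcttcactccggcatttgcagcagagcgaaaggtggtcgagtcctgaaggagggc
The first holds 2 matches, TGACTTCGC and GCTCCGTCA, and the other holds 1, GCTTTGTCA. With the looser TGANNNNGC, of which TGACNNNGC is a special case, 41.8% of all windows held a match.

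TXNRD1 probe set 201266_at read 1199 (empty vector) and 1544 (ARHGAP8) in 2D, and 1341 and 1434 in 3D. The line labelled ARHGAP8 was the higher in each culture, by 0.37 in 2D and 0.10 in 3D, but the line effect of 0.23 ± 0.16 log2 did not pass (adjusted p 0.871 in limma). The culture effect was 0.03 ± 0.16. The other TXNRD1 probe set, 1561080_at, was below the floor on every array, at 12.1 to 24.2, and gives no ratio.

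SRXN1 was read by 1 probe set, at 653 and 688 in 2D and 745 and 747 in 3D, the empty vector first each time. These span little: its culture effect was 0.15 ± 0.16 log2 (adjusted p 0.683 in limma) and its line effect 0.04 ± 0.16.

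NQO1, a reductase that takes quinones to hydroquinones by a transfer of both electrons at once, was read by 3 probe sets, and all 3 were above the floor on every array. Probe set 210519_s_at read 3084, 3198, 3291 and 3234 in the order empty vector 2D, ARHGAP8 2D, empty vector 3D, ARHGAP8 3D, a culture effect of 0.06 ± 0.18 log2 and a line effect of 0.01 ± 0.18. Probe set 201468_s_at read 1541, 1464, 1664 and 2089 and was highest on the ARHGAP8 3D array; its culture effect of 0.31 ± 0.17 did not pass (adjusted p 0.369 in limma). Probe set 201467_s_at read 653, 796, 841 and 706 and was lowest on the empty-vector 2D array. These probe sets order the arrays differently, and their line ratios in 3D ran from -0.25 to 0.33, so no difference in NQO1 was resolved.

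HMOX1, heme oxygenase 1, opens the heme ring and releases iron, biliverdin and carbon monoxide, and BACH1 represses it where heme is low. Its probe set 203665_at read 126.5 (empty vector) and 120.2 (ARHGAP8) in 2D, and 70.3 and 106 in 3D. The empty-vector 3D signal was under the floor, so the ratio of 3D over 2D there is a bound of -0.81 log2, and it was -0.19 in the line labelled ARHGAP8. The culture effect of -0.50 ± 0.25, which takes that array at its floor, did not pass (adjusted p 0.331 in limma). All 4 signals lay below those of HBB and CYP3A4, a globin and a liver enzyme. Signals of different probe sets do not rank genes by expression, so this shows neither that HMOX1 was expressed nor that it was absent.

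The aldo-keto reductases AKR1C1, AKR1C2 and AKR1C3 act on steroids, prostaglandins and aldehydes, and AKR1B10 reduces retinal and lipid aldehydes. AKR1C1 and AKR1C2 are near copies, which bears on how far an array can tell them apart. Their promoter windows are shown to describe how alike these stretches are: chr10:4963165-4963464 on the plus strand for AKR1C1 and chr10:5003808-5004107 on the minus strand for AKR1C2 (RefSeq, GRCh38.p14). Neither holds TGACNNNGC.
AKR1C1 promoter: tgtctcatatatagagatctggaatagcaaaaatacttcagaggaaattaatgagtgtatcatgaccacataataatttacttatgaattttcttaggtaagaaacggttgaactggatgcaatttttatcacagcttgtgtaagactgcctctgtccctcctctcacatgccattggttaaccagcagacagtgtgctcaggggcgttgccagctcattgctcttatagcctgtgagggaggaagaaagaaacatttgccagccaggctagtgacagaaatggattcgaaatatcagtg
AKR1C2 promoter: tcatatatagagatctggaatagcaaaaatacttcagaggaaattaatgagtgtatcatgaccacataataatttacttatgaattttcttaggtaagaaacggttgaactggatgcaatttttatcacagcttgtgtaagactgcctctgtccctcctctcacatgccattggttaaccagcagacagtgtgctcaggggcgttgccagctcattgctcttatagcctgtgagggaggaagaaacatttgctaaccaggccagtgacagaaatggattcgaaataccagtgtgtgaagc
In a global alignment 288 of 308 columns of these windows were identical, 93.5%. Between AKR1C1 and the windows of the AKR1C3 entries the identity was 74.7% and 71.6%. This likeness is of promoters and does not compare the transcripts that the probes read. Of the 10 probe sets that name an AKR1C gene, 4 end in _x_at, the platform's mark for probes that can hybridise to other sequences, and signals of AKR1C1 and AKR1C2 are therefore uncertain as to the gene.

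AKR1B10 probe set 206561_s_at read 84.0 (empty vector) and 122 (ARHGAP8) in 2D, and 64.9 and 138 in 3D. The line labelled ARHGAP8 was higher in each culture, 1.46-fold in 2D and at least 1.91-fold in 3D, where the empty-vector signal was under the floor. The line effect was 0.74 ± 0.24 log2 with an adjusted p of 0.499 in limma, and over the 9 settings that held it the effect ran from 0.70 to 0.81 and the adjusted p from 0.295 to 0.76. It did not pass in any of them. The culture effect was -0.02 ± 0.24.

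Of the AKR1C2 probe sets, 211653_x_at read 68.9, 109, 108 and 210.0 in the order empty vector 2D, ARHGAP8 2D, empty vector 3D, ARHGAP8 3D. The line labelled ARHGAP8 was the higher in each culture, by a bound of 0.59 in 2D and by 0.96 in 3D, and 3D was the higher in each line. The line effect of 0.78 ± 0.26 log2 and the culture effect of 0.76 ± 0.26 did not pass (adjusted p 0.514 and 0.134 in limma). Probe set 209699_x_at was below the floor throughout, at 16.3, 10.4, 9.68 and 66.8, and 244266_at lay between 7.02 and 17.1.

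AKR1C1 probe set 204151_x_at read 116 (empty vector) and 89.0 (ARHGAP8) in 2D, then 106 and 218 in 3D. The ARHGAP8 3D array thus stood above the other 3, which lay close together. Between the lines the ratio was -0.39 log2 in 2D and 1.04 in 3D, a 2.06-fold difference, and within the line labelled ARHGAP8 it was 1.30 between the cultures. This was the one member probe set at least 2-fold higher in either comparison, against 1.51% of all probe sets between the lines in 3D and 2.06% between the cultures in the line labelled ARHGAP8. No member was at least 2-fold apart between the lines in 2D, where 0.247% of all probe sets were higher and 0.281% lower, none was 2-fold lower between the lines in 3D (1.42% of all), and none was 2-fold higher in 3D in the empty-vector line (1.71% of all).

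AKR1C1 probe set 216594_x_at read 124, 135, 105 and 188 on the same arrays, and its line effect of 0.49 ± 0.28 did not pass (adjusted p 0.801 in limma). Of its dimmer probe sets, 1555856_s_at was above the floor with ARHGAP8 in 3D alone (90.6, against 26.1 to 58.2) and 217626_at with the empty vector in 2D alone (76.3, against 27.2 to 61.7), while 1555855_at lay between 11.4 and 14.4. The probe set shared by AKR1C1 and AKR1C2, 1555854_at, read 8.53, 5.44, 14.3 and 25.2 and gives no ratio. AKR1C3 was above the floor on the ARHGAP8 3D array alone, at 88.3, and read 13.2, 43.0 and 31.6 on the empty-vector 2D, ARHGAP8 2D and empty-vector 3D arrays.

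Across the aldo-keto reductases 7 of 11 probe sets were above the floor on some array, and 4 were above it on at least 2 of the 3 arrays other than ARHGAP8 3D. All 4 had their highest signal on the ARHGAP8 3D array. Among all 26909 probe sets that met the same condition, 28.8% were highest there, and among the other members 3 of 12 were. Of the 4, 3 share AKR1C sequence and are not independent of one another. The array is also the one with the raised 18S signal, whose part in this was not tested. Without it, the line effect of 204151_x_at was -0.39 and that of 216594_x_at 0.13, as measured in 2D alone, while those of AKR1B10 and AKR1C2 211653_x_at were 0.54 and 0.59. No aldo-keto reductase signal exceeded 253, the highest signal of the markers of other tissues above the floor. As these are different probe sets, this shows neither expression nor its absence.

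**Figure D3:**
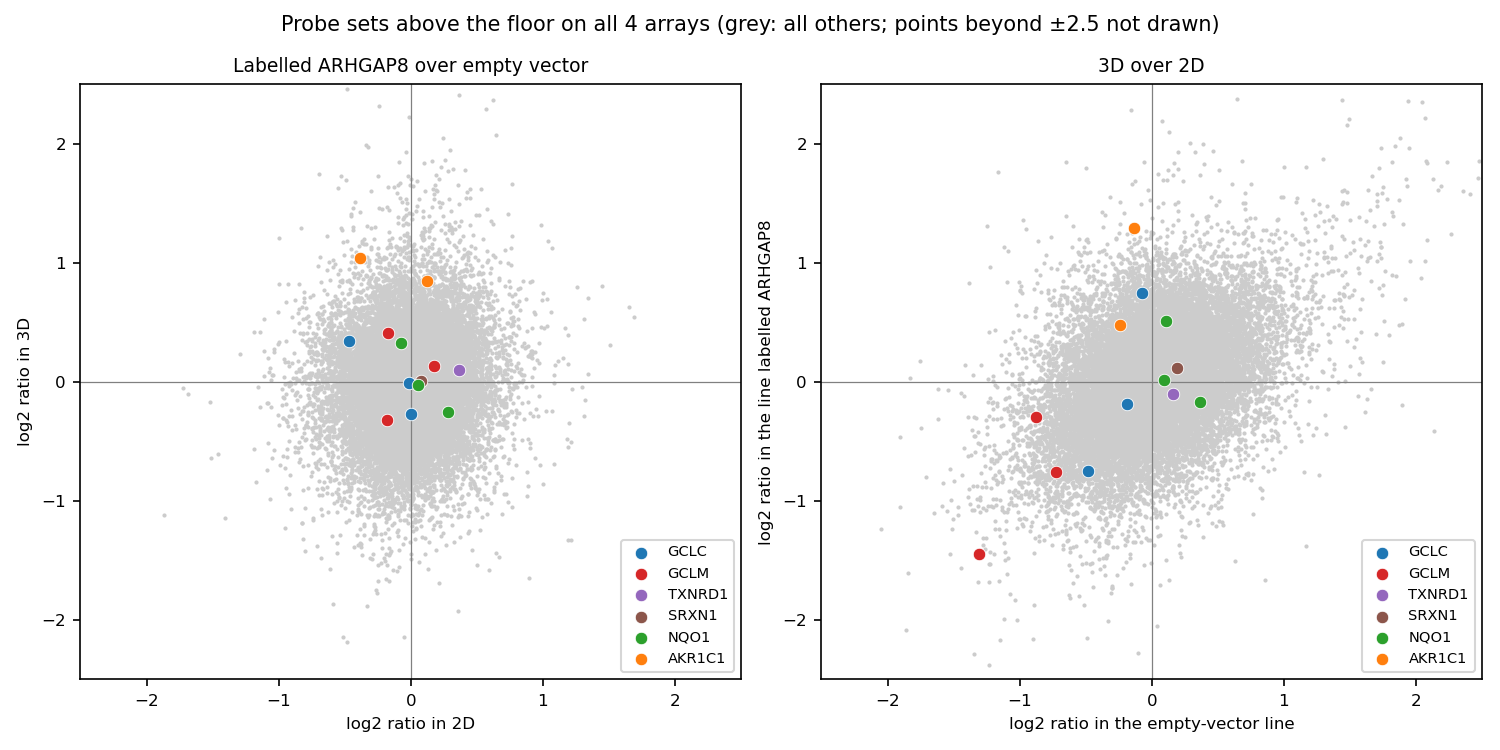
Log2 ratio between the lines in 3D against that in 2D (left) and of 3D over 2D in the line labelled ARHGAP8 against that in the empty-vector line (right), for probe sets above the floor on all 4 arrays; grey points are all other probe sets and coloured points the 13 member probe sets. GCLM lies at the lower left on the right, with all its probe sets below 0 in each line, and AKR1C1 204151_x_at lies at -0.39 and 1.04 on the left.

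The line ratios of the cultures rest on separate arrays, and so do the culture ratios of the lines. Of the 13 member probe sets above the floor on all arrays, 4 were higher in the line labelled ARHGAP8 in both cultures and 3 lower in both, where 26.1% and 26.9% of all such probe sets were. For the culture, 5 were lower in 3D in both lines and 3 higher, where 30.1% and 32.8% of all were. The 5 were the 3 GCLM probe sets and GCLC 202922_at and 202923_s_at. HMOX1, outside these 13, was also lower in 3D in both lines, with 1 of its ratios a bound. Over all 16 tested member probe sets, 9 had a culture effect above 0 and 7 below.

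The regulators of the pathway were read on the same arrays. NFE2L2, the gene of NRF2, read 1361, 1480, 1574 and 1707 on probe set 201146_at in the order empty vector 2D, ARHGAP8 2D, empty vector 3D, ARHGAP8 3D, a culture effect of 0.21 ± 0.16 log2 that did not pass (adjusted p 0.551 in limma). KEAP1 read 372, 357, 219.5 and 157, with both 3D values below both 2D values, and fell by 0.97 ± 0.22 in 3D (limma, adjusted p 0.0262). BACH1 read 473, 559, 816 and 912 on probe set 204194_at and rose by 0.75 ± 0.17 (adjusted p 0.0225 in limma), while its dimmer tested probe set, 234315_at, had 0.13. Each of these calls held under 7 of 10 settings, with adjusted p up to 0.072 for KEAP1 in limma. For BACH1 204194_at it ran up to 0.118, without an intensity trend. The mean of the tested BACH1 probe sets, counted as 1 of the 10 settings, had 0.44 (adjusted p 0.173 in limma). CUL3 had culture effects of -0.25 and -0.27 on its tested probe sets and the small MAF gene MAFF 0.41 and 0.57, none past the test. MAFG had no tested probe set, and MAFK is not analysed here. DPP3, a peptidase that binds KEAP1, fell by 1.20 on 1 probe set (limma, adjusted p 0.0439), with a signal of 73.8 on the ARHGAP8 3D array against 214 to 307 on the others. Without that array its value was -0.52, its other probe set had -0.15, and the call held under 3 of 10 settings.

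In 7 lists of related genes, which leave out probe sets naming several genes, 173 probe sets of 98 genes were tested. Of these 12 rose and 5 fell in 3D, 6.94% and 2.89%, where 1.63% and 1.87% of all probe sets did, and 0 were called between the lines. The lists were chosen with earlier results of these data known, so these counts are descriptions.

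In the glutathione list, 1 of 41 probe sets fell and 0 rose, with a median of 0.10. The one that fell was of GSS, which completes glutathione by adding glycine: it read 849 and 805 in 2D and 522 and 481 in 3D and fell by 0.72 ± 0.17 log2 (adjusted p 0.0266 in limma), in 5 of 10 settings. Its other probe set had -0.57 and did not pass. Thus GCLM of the first step and GSS of the last were lower on both 3D arrays. The probe sets of GCLC, also of the first step, did not all go the same way, and glutathione itself was not measured.

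Enzymes that supply NADPH, the reductant of TXNRD1, NQO1 and the aldo-keto reductases, included 4 of 26 probe sets that rose and 0 that fell, with a median of 0.08. ME1, the cytosolic malic enzyme, rose by 1.70 ± 0.19 on probe set 204059_s_at, from 203 and 248 in 2D to 740.3 and 714 in 3D, and by 1.85 ± 0.25 on 204058_at (adjusted p 0.000142 and 0.000826 in limma). Its dimmest probe set had 0.50 and did not pass. IDH1, the cytosolic isocitrate dehydrogenase, rose by 1.09 ± 0.17 on 1555037_a_at (adjusted p 0.00214 in limma), and its other tested probe sets, at 0.73 and 0.03, did not pass. ALDH1L2, a mitochondrial folate enzyme, rose by 1.11, with its empty-vector 2D signal of 60.9 under the floor, and held in 4 of 7 settings.

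In the thioredoxin list 3 of 34 probe sets rose and 1 fell, with a median of 0.04. TXNIP, which binds and inhibits thioredoxin, rose by 1.24 ± 0.24 and 1.03 ± 0.21 on 2 of its probe sets (adjusted p 0.00974 and 0.014 in limma), with ratios of 1.74 and 1.53 for the empty vector against 0.73 and 0.53 for ARHGAP8, a gap that was not tested. Its last probe set had 0.38. SESN3, a sestrin, rose by 1.21 ± 0.17 on its brightest probe set (limma, adjusted p 0.000911), and its 4 other tested probe sets had 0.29 to 0.73 without passing. MSRB1, a selenoprotein that reduces oxidised methionine, fell by 1.64 ± 0.27, from 363 and 347 in 2D to 87.6 and 147 in 3D (adjusted p 0.00316 in limma).

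Among genes of heme and iron 2 of 22 probe sets rose, both of FTL, the ferritin light chain that NRF2 is known to induce, by 0.76 ± 0.18 and 0.84 ± 0.17 (adjusted p 0.0299 and 0.0137 in limma). Their probe sets end in _x_at, and ferritin has many pseudogene copies. Of the superoxide and peroxide genes 2 of 6 probe sets rose. SOD2, the mitochondrial superoxide dismutase, has only 1 probe set that names it alone, 1566342_at. This probe set read 138 and 158 in 2D and 539 and 1793 in 3D. Its culture effect was a rise of 2.73 ± 0.27, or 1.96 without the ARHGAP8 3D array. CAT, catalase, rose by 0.71 ± 0.18 on 1 probe set (limma, adjusted p 0.0420), a call that held in 4 of 10 settings. Among quinone and carbonyl reductases 1 of 23 fell and 0 rose. That was CBR3, a carbonyl reductase, which read 1026 and 923 in 2D and 518 and 501 in 3D and fell by 0.93 ± 0.16 (adjusted p 0.00558 in limma), in 9 of 10 settings.

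**Figure D4:**
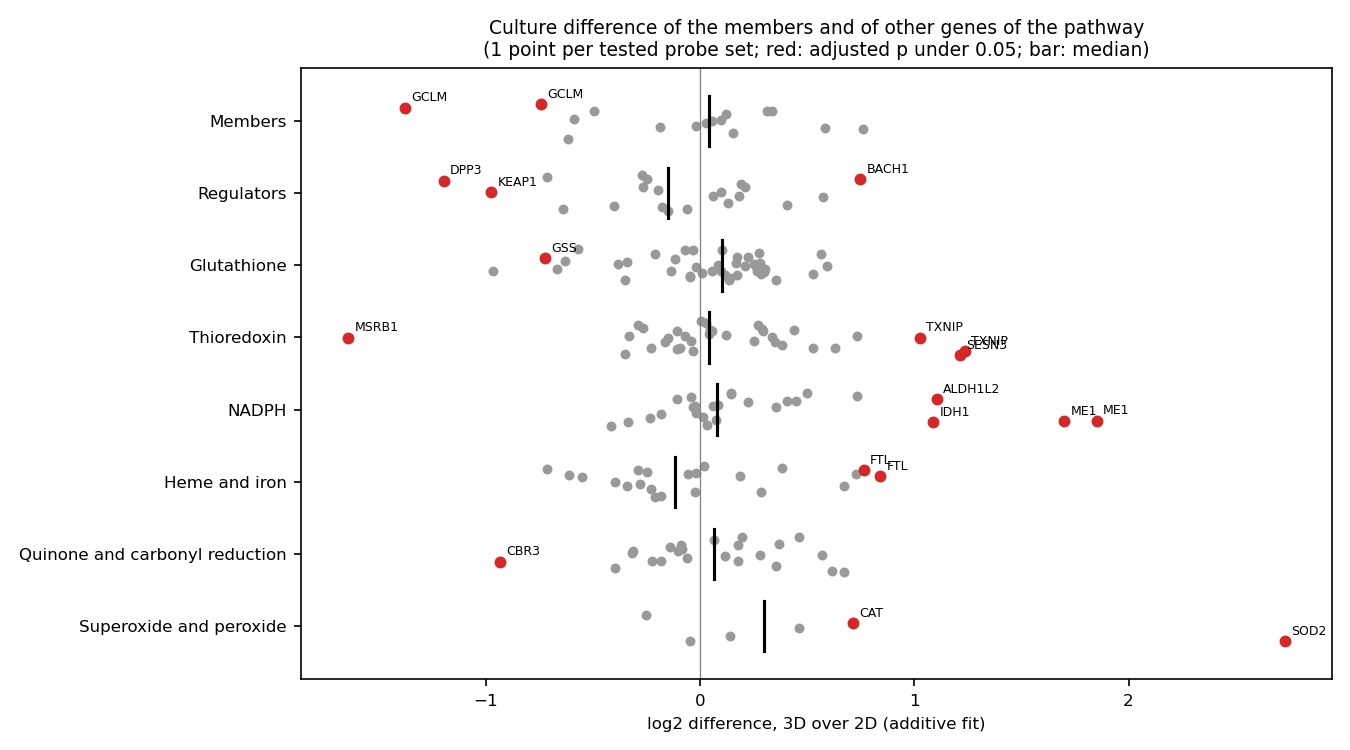
Log2 difference of 3D over 2D from the additive fit for the tested probe sets of the members and of 7 lists of related genes, 1 point per probe set, with list medians as bars and red points at an adjusted p under 0.05. GCLM, KEAP1, GSS, MSRB1 and CBR3 stand on the lower side, ME1, TXNIP, FTL and SOD2 on the higher side, and the list medians lie between -0.15 and 0.30.

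GCLM 236140_at had the widest range of any member above the floor on all arrays, 1.63 log2. By the root mean square difference of centred log2 values over the 4 arrays, the 5 genes most like it among 18704 candidate probe sets were LMNB2, a nuclear lamin (0.0422), SAC3D1 (0.0446), GTSE1, which is expressed in G2 and M phase (0.0746), IFRD2 (0.09) and POC1A, a centriole protein (0.0919). With 4 arrays such a match describes only that each was higher in 2D by a like amount in either line.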

How the data were processed

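Total RNA from 4 cultures, 1 per combination of line and culture, was measured on 1 whole-genome Affymetrix array each. Per the submitters' processing notes the authors used MAS5, and the deposited table gives each probe set a linear signal intensity. Its version is not given in the sources used here. All arrays had the same 2% trimmed mean, 150.0. The 62 control probe sets were left out, signals below the median, 72.3, were set to it, and log2 was taken. Of the other probe sets, 41091 carried 1 gene symbol in the platform annotation, 1801 several and 11721 none. Of the 41091, 41037 had a gene identifier found in RefSeq (GRCh38.p14) and took its symbol, whether or not it differed.

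An additive model of line and culture was fitted with limma 3.58.1 under R 4.3.3 (eBayes with an intensity trend, two-sided, Benjamini-Hochberg adjustment, threshold 0.05) and was tested on simulated data. Every probe set was a feature, so that those shared between AKR1C genes were kept. The fit has 1 residual degree of freedom and prior degrees of freedom of 13.9, so the SE comes mostly from probe sets of like signal, and p-values hold no variation between independent lines or cultures. Single ratios were called at 2-fold with no test, and a ratio is a bound where only 1 of its signals exceeds the floor. Promoter windows were aligned with Biopython 1.88. The number of arrays limits the precision.

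The members and lists were chosen with earlier results of these data known. Named were all members, list genes with a probe set past the test, and NFE2L2, KEAP1, CUL3, BACH1, MAFG, MAFF and MAFK. A planned protein comparison was not made.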

Additional observations from a re-analysis of the deposited data

Results flagged for a closer look

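For 2 member probe sets above the floor on all arrays the line labelled ARHGAP8 was lower in 2D but higher in 3D, with ratios at least 1.5-fold apart, a difference that was not tested. AKR1C1 204151_x_at differed by 1.43 log2 (-0.39 in 2D, 1.04 in 3D). GCLC 1555330_at differed by 0.82 (-0.47 and 0.35), while the other GCLC probe sets differed by 0.00 and -0.27. Outside the genes compared, the 18S control probe sets had a median signal of 626 on the ARHGAP8 3D array against 27.7 to 49.4 on the others.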

How the results depend on the processing

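No member probe set was called for the line under any of the 10 settings. Where 10 settings are counted for a named probe set, 1 of them averages the tested probe sets naming its gene alone. For the culture, the 2 lower member calls became 1 after quantile or cyclic loess normalization, with log2(value + 1) or log2(value + 16) in place of the floor, and with no intensity trend. With the mean of probe sets per gene GCLM is 1 feature, and this feature passed (-0.90, adjusted p 0.0135 in limma). With other filters the same GCLM probe sets passed. With the highest probe set per gene, which leaves out 236140_at, the calls were GCLM 203925_at (adjusted p 0.00924 in limma) and GCLC 202923_s_at (0.0344). GCLM 236140_at was past the threshold in every setting that held it. Over all features, 466 higher and 535 lower culture calls became 274 and 215 after quantile normalization, 297 and 218 after cyclic loess, 301 and 290 with log2(value + 1), 285 and 329 with gene means, and 199 and 161 without a trend. On probe sets above the floor on all arrays 15 higher and 13 lower line calls were made. Line effects near 0 changed sign, with the cause not tested. For GCLC 202922_at quantile normalization gave 0.0033 and cyclic loess 0.0034, and for NQO1 210519_s_at -0.030 and -0.039, its culture effect after quantile normalization being -0.030. With gene means it was -0.14 for ME1, 0.029 for GSS and -0.0012 for MAFF. At 1.5-fold in place of 2-fold, member probe sets apart numbered 1 higher between the lines in 2D and 4 higher in 3D, and for 3D over 2D 4 lower with the empty vector and 3 either way with ARHGAP8. With the floor at the 40th percentile 2 were higher between the lines in 3D. The shares of all probe sets at 1.5-fold and with this floor are not given, so these member counts are descriptions only. With TGANNNNGC, 6 of 10 member promoters held a match in place of 3, where 41.8% of all windows did in place of 13.3%. Of the 6, those of AKR1C1 and AKR1C2 are 93.5% identical and hold the same match, GCCAGCTCA. Signals near the floor limit HMOX1, the aldo-keto reductases, GCLC 1555330_at and, in 3D, GCLM 236140_at. Among others, KEAP1, MSRB1, DPP3 and GCLM 234986_at in 3D, SOD2 and ME1 in 2D, and ALDH1L2 on every array read below 253. Such signals do not by themselves show expression.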
